A study of Sus scrofa with 95 samples.

Results

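The 10 genes described here encode abundant plasma proteins that hepatocytes, the main cells of the liver, secrete into the blood: ALB, TTR, RBP4, TF, APOA1, APOA2, APOH, AHSG, SERPINA1 and AMBP. They were chosen by symbol, and all 10 are among the 35670 genes of the count table. The table holds messenger RNA counts from 5 organs of 19 infant pigs of both sexes, 95 libraries in all: left ventricle of the heart, terminal ileum, kidney cortex, liver and the lower lobe of the right lung. Cardiopulmonary bypass (CPB) hands the work of heart and lungs to a pump and an oxygenator, and in deep hypothermic circulatory arrest the cooled circulation is then stopped, here for 75 min. The 3 arms were anesthesia controls without drug (8 animals), CPB with arrest without drug (7 animals, called CPB below) and CPB with arrest plus 75 mg of linrodostat, an inhibitor of the tryptophan-degrading enzyme IDO1 (4 animals, called linrodostat below). No arm received linrodostat without CPB. Kidney and ileum were taken just before the animals were killed and the other organs just after, and every organ was drained of blood by gravity before freezing. Each animal gave 1 library per organ, so the animals of the 3 arms are separate and the organs share animals.

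Hepatocytes make most plasma proteins and send them through the endoplasmic reticulum and the Golgi apparatus into the blood. Their genes are held on by liver-enriched transcription factors such as the HNF1, HNF4, FOXA and C/EBP families. Several of the 10 are known as negative acute phase proteins, which fall in plasma during inflammation. Some have known sites of synthesis outside the liver, such as apolipoprotein A1 in the small intestine, while liver messenger RNA in another organ's sample can also come from traces of liver tissue or from RNA in blood.

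In units of 1e6 counts, library totals ran from 20.0 to 53.6 with a median of 35.1. Levels are given in CPM (counts-per-million), and 3 counts were worth 0.0559 to 0.15 CPM. Each CPM was scaled by TMM (trimmed mean of M values, a factor per library) within each organ, and each log2 fold change stands with its standard error after the ± sign. A gene passed at a Benjamini-Hochberg adjusted p under 0.05 over all genes tested in that organ with edgeR's quasi-likelihood F test, which is 2-sided. The labels put the 19 hearts in batch 2 and the 76 libraries of the other organs in batch 1, so heart and batch cannot be told apart. Counts are not divided by gene length, and no lengths were used, so levels are compared between libraries for the same gene and not between genes.

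The 10 genes took 7.42 to 12.0% of all counts in a liver library, with a median of 9.29%. ALB alone took 2.97 to 5.48%. In the other organs the same 10 genes took at most 0.172% of a library, in ileum, and as little as 0.0017%, in heart. In liver the spread between animals was moderate for every one of them: the highest of the 19 livers was 1.77 times the lowest for AMBP and 2.61 times for AHSG, the extremes of the 10.

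In liver, none of the 10 genes passed the test of CPB against control, while 26.9% of all tested genes did. That comparison asks what bypass with arrest changed relative to anesthesia alone. The median log2 fold change of the 10 was 0.00 and that of all 15406 tested genes was -0.03, and 6 of the 10 lay above 0. At an unadjusted p under 0.05, 1 of the 10 and 6050 of all 15406 tested genes differed by edgeR. DESeq2 and limma-voom called 0 of the 10. The 95% intervals were narrow: the outermost bounds over the 10 genes were 0.698-fold, for SERPINA1, and 1.48-fold, for TF. The summed level of the 10 was 69020 to 117600 CPM in control livers (median 91120), 87900 to 109400 in CPB livers (median 101300) and 83440 to 98560 in linrodostat livers (median 88530).

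**Figure D1:**
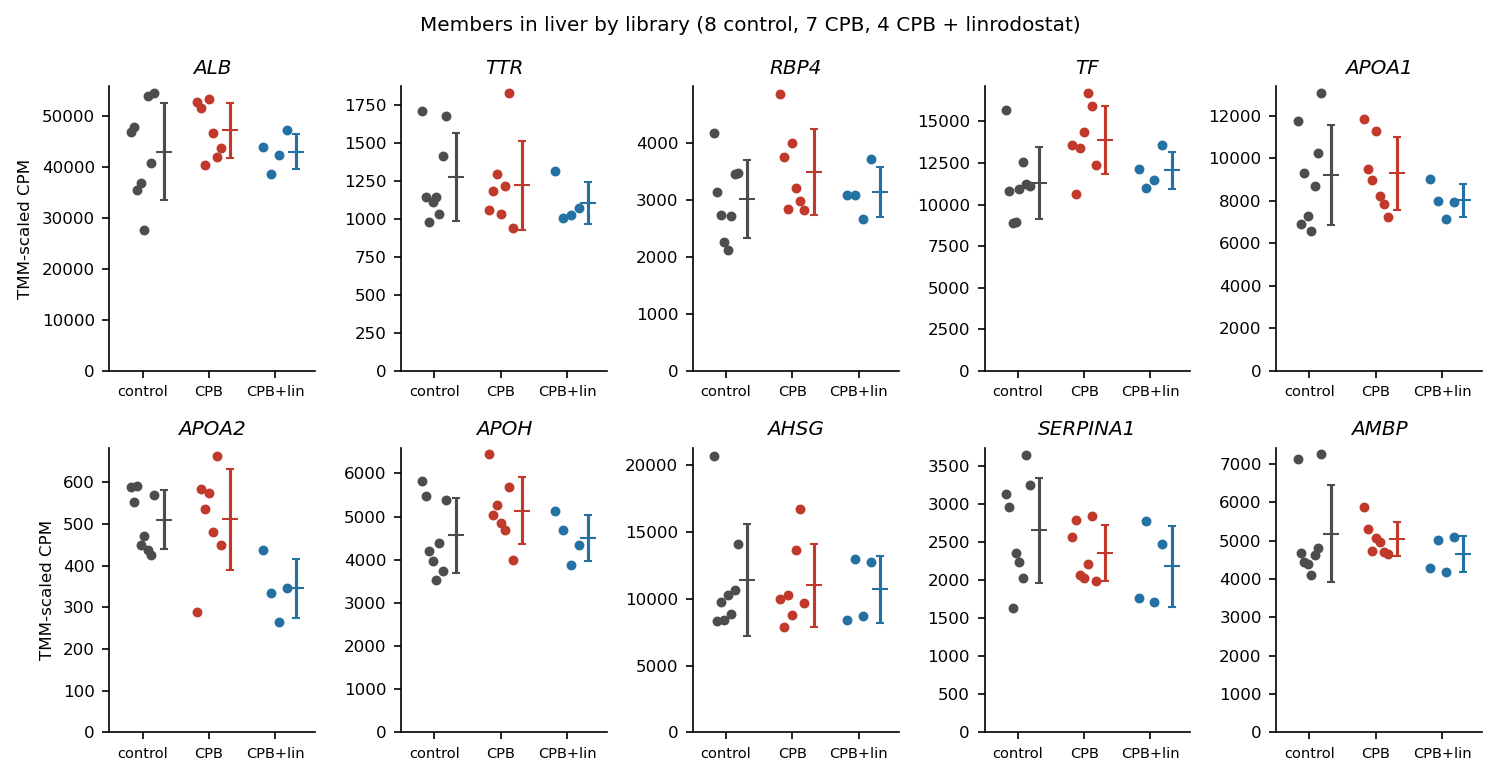
TMM-scaled CPM of the 10 genes in each liver library (points), with the mean and SD beside each arm; every axis starts at 0. The arms overlap in all 10 genes; the 4 linrodostat livers sit low for APOA2, between 265.6 and 437.4 CPM.

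The carriers come first. ALB encodes albumin, the main carrier and osmotic protein of plasma (ENSSSCG00000008948, Sscrofa11.1 chromosome 8, 69643427 to 69663152 in RefSeq). Its lowest, median and highest levels were 27600, 43845 and 54570 CPM in control livers and 40490, 46650 and 53430 CPM in CPB livers. The 4 linrodostat livers had 43880, 38740, 42400 and 47220 CPM. The 3 arms overlapped throughout, and CPB against control gave 0.14 ± 0.13 (adjusted p = 0.475; 95% interval of the fold 0.905 to 1.33).

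TF encodes transferrin, which carries iron. It had the largest estimate of the 10 in CPB against control, 0.30 ± 0.13 (adjusted p = 0.0876, unadjusted p = 0.0298). Its lowest, median and highest levels were 8874, 11020 and 15700 CPM in control livers and 10660, 13560 and 16730 CPM in CPB livers. Linrodostat livers lay within the range of the controls, at 12160, 10990, 11480 and 13590 CPM. TF passed when the liver of control animal 1 was left out (0.38, adjusted p = 0.0257) or that of CPB animal 6 (0.35, adjusted p = 0.0457). RefSeq lists 2 neighbouring genes named TF on chromosome 13, one of them also called PICA, and the table's single TF row (ENSSSCG00000011640) could not be tied to 1 of them, so reads of the pair may be mixed in it.

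TTR encodes transthyretin, which carries thyroid hormone and the retinol-binding protein (ENSSSCG00000023686, chromosome 6, 115496338 to 115503974). It measured 981.8, 1145 and 1713 CPM (lowest, median, highest) in control livers and 944.0, 1183 and 1833 CPM in CPB livers, a change of -0.06 ± 0.16 (adjusted p = 0.788). RBP4 encodes the retinol-binding protein itself (ENSSSCG00000010479, chromosome 14, 105037360 to 105044552). Control livers had 2113, 2938 and 4165 CPM and CPB livers 2816, 3203 and 4855 CPM, a change of 0.21 ± 0.15 (adjusted p = 0.317). These partners in plasma were only loosely tied across the 19 livers, with a Pearson r of 0.21 on log2 CPM, whereas RBP4 followed ALB with 0.726.

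The apolipoproteins differed from each other. APOA1, the main protein of high-density lipoprotein (ENSSSCG00000030921, chromosome 9, 44216481 to 44218360), had 6597, 8990 and 13080 CPM in control livers and 7249, 8999 and 11860 CPM in CPB livers, a change of 0.01 ± 0.15 (adjusted p = 0.975). APOH, a glycoprotein that binds phospholipids (ENSSSCG00000040910, chromosome 12, 12827195 to 12839172), had 3538, 4304 and 5822 CPM and 3986, 5031 and 6455 CPM, a change of 0.17 ± 0.13 (adjusted p = 0.352). APOA2, the second protein of high-density lipoprotein (ENSSSCG00000006355, chromosome 4, 89237514 to 89239126), did not pass in CPB against control either (0.00 ± 0.15, adjusted p = 0.997).

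APOA2 was the 1 gene of the 10 that passed in liver in any comparison: it was lower in linrodostat livers than in controls, by -0.56 ± 0.19 (adjusted p = 0.0356; fold 0.677, 95% interval 0.518 to 0.886). Control livers held 425.2, 513.0 and 590.2 CPM (lowest, median, highest), CPB livers 288.0, 536.4 and 663.8 CPM, and the 4 linrodostat livers 437.4, 335.0, 265.6 and 345.7 CPM. The linrodostat liver at 437.4 CPM (animal 12) overlapped the controls, and the CPB liver at 288.0 CPM (animal 2) lay among the linrodostat livers. DESeq2 and limma-voom also called it. The call was lost when any of 6 livers was left out, control animals 1, 7 and 26 and linrodostat animals 18, 20 and 24, with estimates of -0.44 to -0.56 and adjusted p of 0.0564 to 0.132. In that comparison 1 of the 10 genes passed, beside 21.8% of all genes tested.

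Linrodostat against CPB asks what the drug added to bypass. None of the 10 genes passed in liver, beside 0.772% of all genes tested. At an unadjusted p under 0.05, 1 of the 10 and 1297 of all 15406 tested genes differed by edgeR. DESeq2 and limma-voom called 0 of the 10. All 10 estimates lay below 0, from -0.04 ± 0.25 for AHSG to -0.56 ± 0.19 for APOA2 (adjusted p = 0.311, unadjusted p = 0.00738), with a median of -0.15 against -0.01 over all genes. The 2 contrasts share the CPB or the linrodostat livers, so their values for a gene are not independent.

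**Figure D2:**
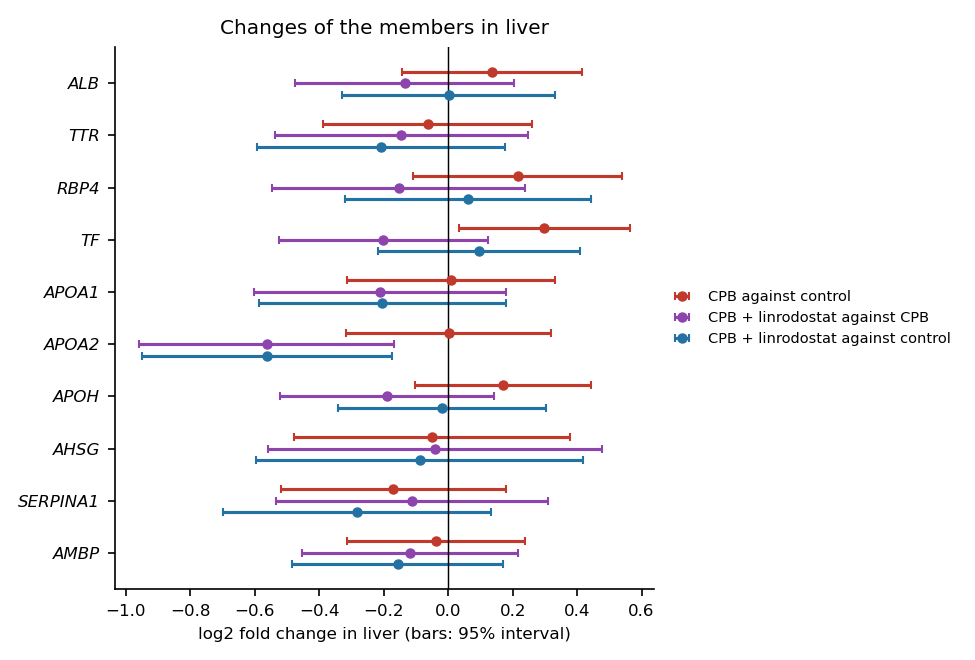
Log2 fold changes of the 10 genes in liver in the 3 comparisons (points) with 95% intervals (bars). In CPB against control every interval but that of TF crosses 0; the 2 intervals of the linrodostat arm for APOA2 lie below 0.

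The last 3 are inhibitors of proteases or of mineral growth. AHSG encodes fetuin-A, which keeps calcium phosphate in solution (ENSSSCG00000011799, chromosome 13, 124426313 to 124438848). It varied most, with 8328, 10037 and 20670 CPM in control livers and 7919, 10030 and 16740 CPM in CPB livers (-0.05 ± 0.20, adjusted p = 0.883). The highest control liver, animal 1, stood well above the next. SERPINA1 encodes alpha-1-antitrypsin, which inhibits neutrophil elastase (ENSSSCG00000038515, chromosome 7, 115604282 to 115616915). It had 1634, 2661 and 3639 CPM and 1992, 2216 and 2838 CPM (-0.17 ± 0.17, adjusted p = 0.472). AMBP encodes a precursor that is cut into alpha-1-microglobulin and bikunin, the light chain of the inter-alpha inhibitors (ENSSSCG00000005485, chromosome 1, 254683885 to 254703220). It had 4113, 4650 and 7264 CPM and 4646, 4963 and 5890 CPM (-0.04 ± 0.13, adjusted p = 0.858). In these 3 genes the CPB livers lay within the range of the control livers, except for the lowest AHSG value.

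Related gene lists are read against the 26.9% of all liver genes that passed in CPB against control. Of 19 tested genes of the secretory path (import into the endoplasmic reticulum, folding and export), 11 rose in CPB against control, 0 fell and 8 did not pass, with a median of 0.49. Examples are SEC24D of the export coat (0.81 ± 0.26, adjusted p = 0.0262), SRP54 of the signal recognition particle (0.72 ± 0.12, adjusted p = 0.000484) and MCFD2 (0.70 ± 0.14, adjusted p = 0.00158), a partner of the cargo receptor LMAN1. Of 16 liver transcription factors 3 rose and 0 fell: CEBPA (1.29 ± 0.32), HNF4A (1.08 ± 0.23) and CEBPB (0.88 ± 0.21), with adjusted p of 0.00603, 0.00278 and 0.00458. That share and those of the next lists lie below that of all genes: 1 of 15 tested carriers and apolipoproteins rose (SERPINA6, the cortisol carrier, 1.06 ± 0.38, adjusted p = 0.0457), and 1 of 12 fetuins and inhibitors fell (KNG1, kininogen, -0.32 ± 0.12, adjusted p = 0.0449). Of 9 positive acute phase genes 1 rose, LCN2, an iron-chelate binder (1.28 ± 0.38, adjusted p = 0.0196). That list had 16 genes, but HP, ORM1, SAA2, SAA3, SAA4, FGA and SERPINA3 were not found under those symbols and could not be tested. Of 13 receptors and partners 1 fell, AMN, part of the receptor for intrinsic factor (-1.52 ± 0.52, adjusted p = 0.036).

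In linrodostat against CPB, 0 of those secretory, transcription factor, carrier, inhibitor and acute phase genes passed. Among receptors and partners 2 of 13 were higher, AMN (3.88 ± 0.58, adjusted p = 0.00723) and CUBN, its partner cubilin (2.72 ± 0.57, adjusted p = 0.0233). Both genes are also made in ileum, and CUBN is the 1 kidney tubule marker of the lists used here that was tested in liver. In the same comparison 4 of 6 tested enterocyte markers were higher, beside 0.772% of all genes tested. The enterocyte list summed to 79.92 to 261.5 CPM in linrodostat livers, 21.02 to 66.92 in CPB livers and 25.63 to 71.62 in controls. In ileum the same sum was 1085 to 12940 CPM. The part of those transcripts in any value of the linrodostat livers was not tested.

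The liver samples held their labelled tissue: 11 of 12 intracellular hepatocyte markers were present and summed to 3412 to 10850 CPM, while BAAT was at 0 in every liver. Of these markers 0 of 11 tested passed in CPB against control. Other cell types moved with the arms. Of 7 macrophage markers 4 fell in CPB against control, and their summed level was 694.0 to 1559 CPM in control, 499.2 to 969.4 in CPB and 483.8 to 793.1 in linrodostat livers. Of 8 lymphocyte markers 6 fell, from 68.95 to 161.1 CPM in controls to 27.77 to 97.92 in CPB livers. Their part in the values of the 10 genes was not tested. In tissue samples like these, fewer cells of a type and less RNA per cell cannot be told apart.

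Across the 19 livers the 10 genes were related unevenly. Pearson r of log2 CPM between pairs ran from -0.04 (APOA2 with RBP4) to 0.788 (AMBP with APOA1). Against the mean of all 10, AMBP followed most closely (0.875) and APOA2 least (0.386), each gene being part of that mean. Outside the 10, the nearest genes were KLHDC8A (0.784), AFM, the vitamin E carrier afamin (0.781), JMJD8 (0.781), PROC, protein C of the clotting system (0.775), and SERPINC1, antithrombin (0.774). All pairs share library, arm and depth, so these are descriptions.

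Outside the liver, each level, scaled within its own organ, was read as a percent of the mean level of that gene in the 8 control livers. Beside it stood the same percent for the summed counts of TDO2 and APCS, a tryptophan-degrading enzyme and a plasma protein of hepatocytes, both at a median of 0.0743 CPM or less in the controls of every other organ. That pair was chosen after the levels were seen, because the longer list of hepatocyte genes was no measure of liver RNA in kidney: HAO1 and F9 had medians of 60.9 and 58.9 CPM in control kidneys. A single source of liver RNA keeps its genes in 1 ratio, so a gene far above the percent of TDO2 and APCS has more transcripts than that ratio gives. TDO2 and APCS reached 0.02% of their liver level in 5 of 19 ileum, 4 of 19 kidney, 2 of 19 heart and 0 of 19 lung libraries.

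**Figure D3:**
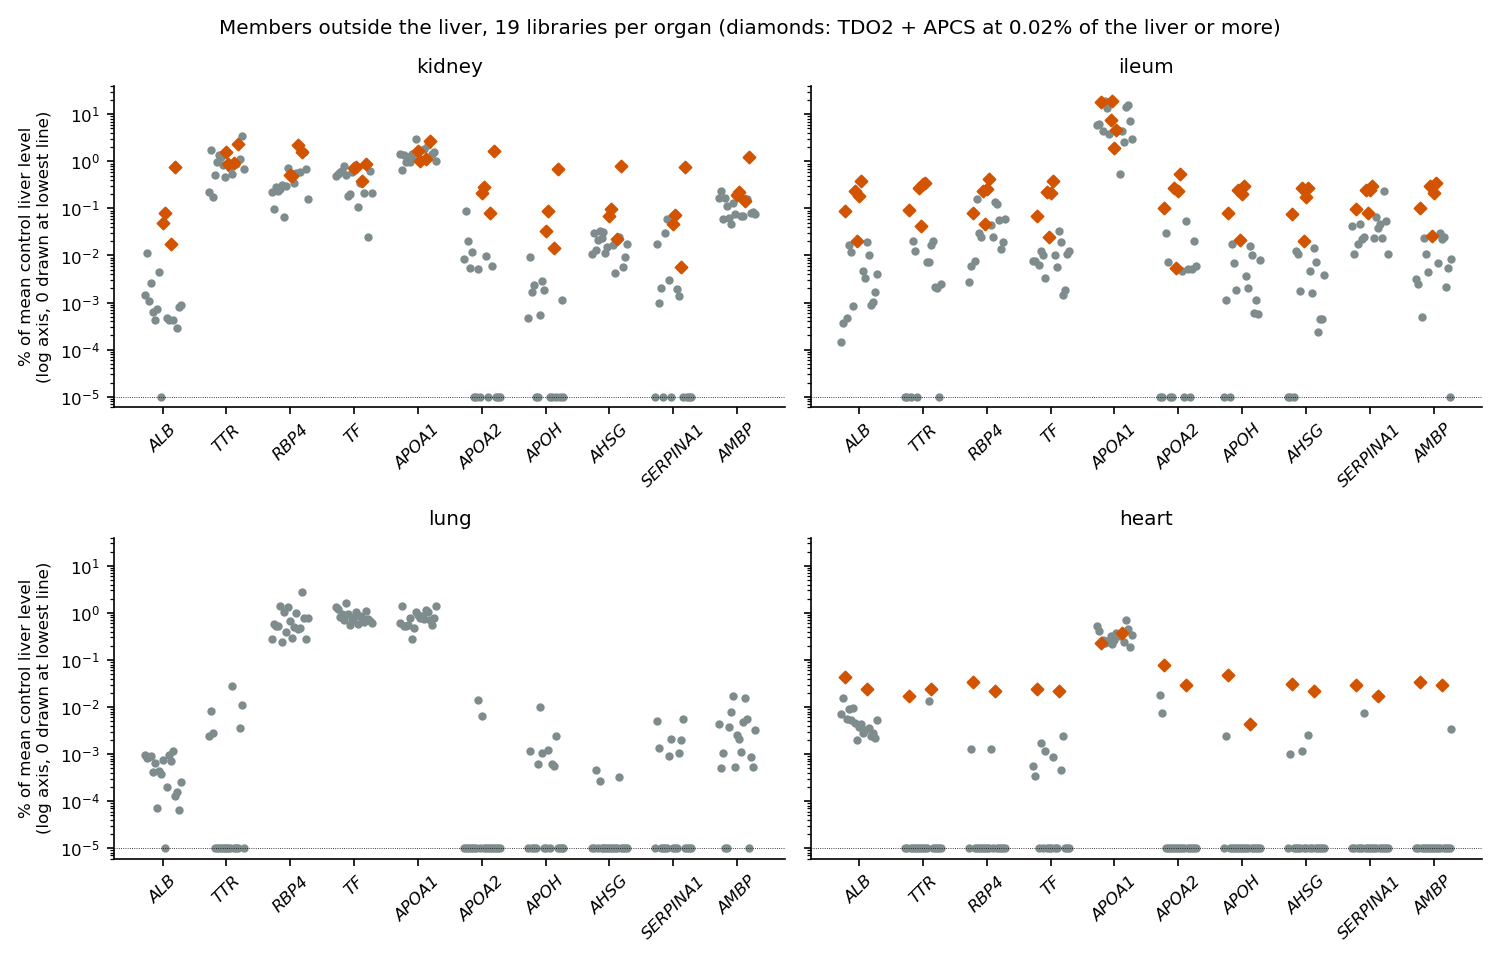
Level of each gene in every library of the 4 other organs, as percent of its mean level in control livers (log axis; a level of 0 is drawn at the dotted line). Diamonds mark libraries with TDO2 and APCS at 0.02% of the liver level or more; APOA1 stands above the diamonds of the other genes in ileum and heart.

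In ileum, APOA1 was abundant in every library, and the other 9 genes were at most 0.231% of the liver level where TDO2 and APCS were low. APOA1 lay at 358.0, 645.4 and 1753 CPM (lowest, median, highest) in control ilea, 49.55, 414.1 and 1740 CPM in CPB ilea and 276.2, 652, 1311 and 1476 CPM in linrodostat ilea. That is 0.537 to 19.0% of the liver level. In the 5 ilea with TDO2 and APCS, the other genes stood close to the ratio of that pair. The ileum of CPB animal 9 had the pair at 0.346%, and the 9 genes at 0.27% (AHSG) to 0.539% (APOA2), with ALB at 0.384%. The ileum of control animal 26 had the pair at 0.268% and the 9 genes at 0.227% (TF) to 0.307% (AMBP). In control animal 7 and CPB animal 6 also, 9 of the 10 genes were within 2-fold of the pair, and APOA1 alone was above. In CPB animal 2 the count was 7 of 10. In the other 14 ilea the medians of the 9 genes were 0.00169 to 0.0317% of the liver, lowest for AHSG and highest for SERPINA1. ALB, TF, SERPINA1 and RBP4 were at 0 in none of these 14, where TDO2 and APCS were at most at 0.0151%. SERPINA1 was over 10 times the percent of that pair in 7 of the 14, reaching 0.231%, and RBP4 in 5, reaching 0.157%. APOA2 was so in 2, AMBP in 1, and ALB, TF, TTR, AHSG and APOH in 0. In such counts the pair was taken as at least 0.002%, since it was at 0 in some libraries.

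None of the 10 genes passed in ileum in any comparison. All 10 were tested, and of all genes 0% passed in CPB against control, 0% in linrodostat against CPB and 0.213% in linrodostat against control. At an unadjusted p under 0.05 the counts by edgeR were 0, 6 and 4, in that order. Of all 17869 genes tested, 932, 1641 and 2463 had such a p. DESeq2 called 0, 1 and 1 of the 10, ALB in both cases, lower in linrodostat ilea, and limma-voom 0. Of the 5 ilea with TDO2 and APCS, 2 were controls, 3 were CPB and 0 were linrodostat animals. Their part in these differences was not tested beyond leaving them out, which left the counts of passing genes at 0.

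**Figure D4:**
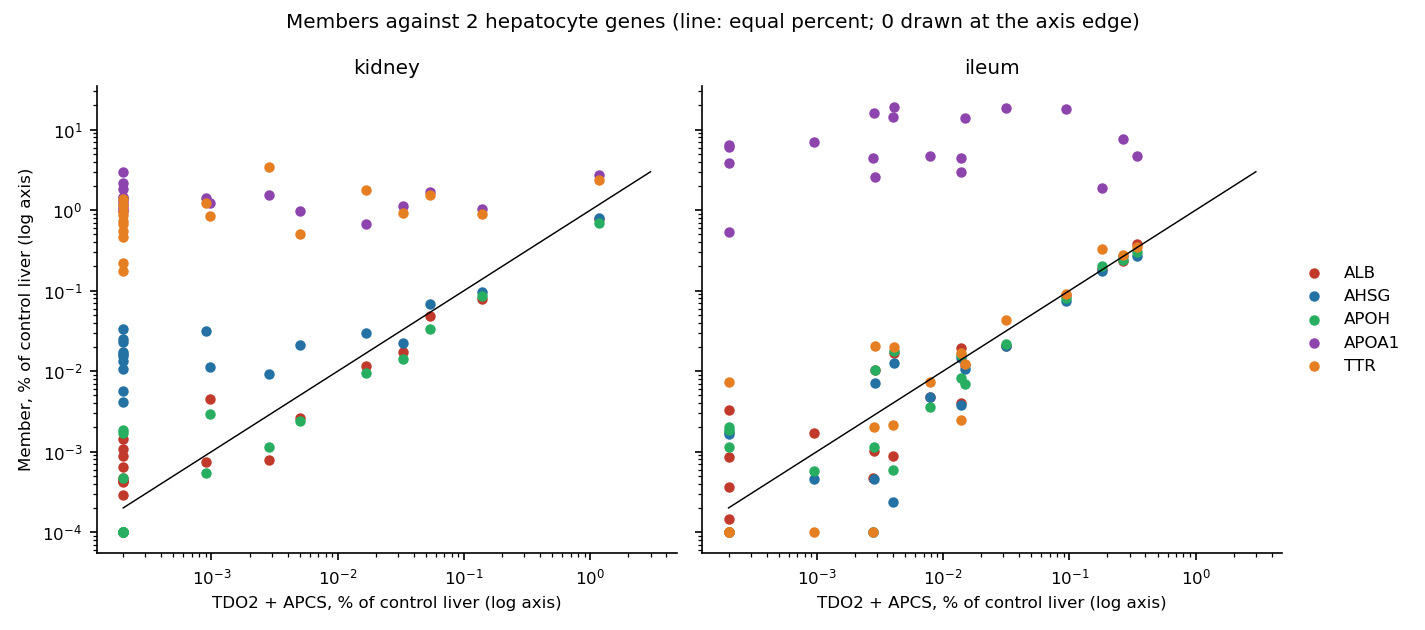
Percent of the control liver level of ALB, AHSG, APOH, APOA1 and TTR against that of TDO2 and APCS together in each kidney and ileum library (log axes; 0 is drawn at the edge; the line marks equal percents). APOA1 lies above the line in both organs and TTR above it in kidney, both nearest to it in the kidney with the most TDO2 and APCS (2.72 and 2.38% against 1.18%), and ALB and APOH come near the line where TDO2 and APCS are highest.

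In kidney, APOA1, TTR, TF, RBP4, AMBP and AHSG were present in all 19 libraries. In the 15 kidneys with little TDO2 and APCS (at most 0.0169%), APOA1, TTR, TF and AMBP were over 10 times the percent of that pair in 15 and RBP4 in 14. In the 4 kidneys with more of the pair, APOA1, TTR and TF were over 10 times its percent in 2 each, RBP4 in 1 and AMBP in 0. In the 15 kidneys APOA1 stood at 0.672 to 2.94% of the liver level, TTR at 0.175 to 3.42%, TF at 0.0247 to 0.801%, RBP4 at 0.0669 to 1.59% and AMBP at 0.0459 to 0.23%. AHSG was lower, at 0.00418 to 0.0335%, and was over 10 times the percent of the pair in 4 of these 15. ALB, APOA2, APOH and SERPINA1 had medians of 0.000741, 0.00519, 0.000466 and 0.000979%, and were at 0 in 1, 7, 7 and 7 of these 15 kidneys. The labelled tissue was present, with kidney tubule markers summing to 7963 to 14080 CPM in every kidney.

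RBP4 was the kidney gene that rose. Control kidneys held 2.01, 7.41 and 9.59 CPM (lowest, median, highest), CPB kidneys 10.4, 17.1 and 66.2 CPM, and the 4 linrodostat kidneys 47.6, 47.9, 20.2 and 4.88 CPM. All 7 CPB kidneys lay above all 8 control kidneys, and 1 linrodostat kidney, animal 24, lay within the controls. The share of all kidney genes whose arms separate in that way was not counted. The change was 1.80 ± 0.47 in CPB against control (adjusted p = 0.0112; 3.49-fold, 95% interval 1.77 to 6.86) and 2.17 ± 0.52 in linrodostat against control (adjusted p = 0.00708). Against CPB kidneys, linrodostat kidneys differed by 0.36 ± 0.55 (adjusted p = 0.998; 95% interval of the fold 0.583 to 2.84). Of the 10 genes 1 passed in CPB against control, beside 21.1% of all genes tested.

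The rise of RBP4 in CPB kidneys was kept when any single kidney was left out, at 1.26 to 1.93. It was lost when the 4 kidneys with TDO2 and APCS were left out together, CPB animals 6, 9 and 21 and linrodostat animal 12 (1.33, adjusted p = 0.0644), with 4 CPB kidneys remaining. Without those 4 kidneys it passed in linrodostat against control (1.88, adjusted p = 0.0236). In CPB animal 9, RBP4 was at 0.487% of the liver level against 0.139% for the pair, and in CPB animal 21 at 2.2% against 0.0328%.

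APOA1 in kidney was 62.0, 113 and 135 CPM in controls and 94.2, 154 and 271 CPM in CPB animals, and did not pass (0.55 ± 0.24, adjusted p = 0.11). Without the 4 kidneys it did (0.80, adjusted p = 0.0284). Among related genes in kidney, 3 of 15 tested carriers and apolipoproteins rose in CPB against control and 1 fell, and of 14 receptors and partners 0 rose and 2 fell; neither list is set apart by these counts from the 21.1% of all genes. The largest was APOA4, an apolipoprotein of chylomicrons (4.04 ± 0.60, adjusted p = 0.00021). The receptors that fell were LRP2, megalin, which takes up filtered proteins such as RBP4 in the proximal tubule (-0.71 ± 0.22, adjusted p = 0.0255), and TFRC, the transferrin receptor (-1.10 ± 0.24, adjusted p = 0.00404). These 3 were chosen after their values were seen. In the same kidneys 5 of 7 macrophage markers fell, 1 of 8 tubule markers fell, and 2 of 5 lung epithelium markers rose, SFTPC and SCGB1A1. Their part in the values of RBP4 was not tested.

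**Figure D5:**
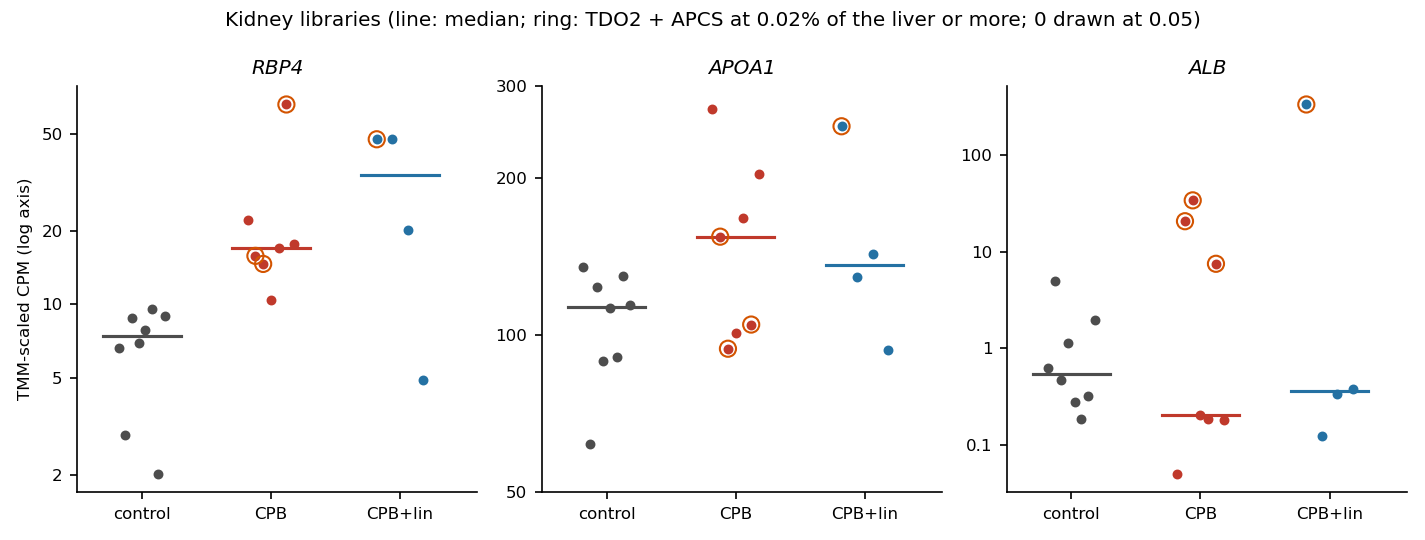
RBP4, APOA1 and ALB in each kidney library (points, log axis in TMM-scaled CPM) with the median of each arm (line); rings mark kidneys with TDO2 and APCS at 0.02% of the liver level or more, and 0 is drawn at 0.05. All 7 CPB kidneys lie above the controls for RBP4, a separation not counted over all genes. For ALB the 4 ringed kidneys lie above all others.

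ALB in CPB against control turned with those kidneys. Control kidneys had 0.187, 0.542 and 4.94 CPM (lowest, median, highest) and CPB kidneys 0, 0.203 and 33.9 CPM. The fit gave 2.86 ± 1.47 (adjusted p = 0.174) over all kidneys and -3.04 (adjusted p = 0.0459) without the 4 kidneys with TDO2 and APCS. Those 4 were also the highest for ALB, at 7.48 CPM or more, and none was a control. Control animal 4, at 4.94 CPM of ALB and 0.0169% for the pair, stayed in. The CPB kidneys left in held at most 0.203 CPM, where 3 counts are worth 0.0703 to 0.117 CPM in kidney. The fall thus depends on which kidneys were left out.

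ALB, AHSG, APOA2 and APOH also passed in kidney in linrodostat against control, but on 1 library. With RBP4 that made 5 of the 10 genes, beside 20% of all genes tested. The kidney of linrodostat animal 12 held 333 CPM of ALB, 91.4 of AHSG, 31.4 of APOH and 8.49 of APOA2. The other 3 linrodostat kidneys held 0.123, 0.338 and 0.382 CPM of ALB, 0.655, 1.04 and 1.98 of AHSG, 0, 0.052 and 0 of APOH, and 0, 0 and 0 of APOA2. Control kidneys ran from 0.187 to 4.94 CPM for ALB, so the other 3 linrodostat kidneys lay within or below the controls. The fitted changes were 6.08 ± 1.71 for ALB, 3.25 ± 0.94 for AHSG, 4.51 ± 1.48 for APOA2 and 6.25 ± 1.69 for APOH (adjusted p = 0.0189, 0.0212, 0.0378 and 0.0144). Without animal 12 the estimates were -2.12, -1.04, -4.73 and -2.14, none of them passing, and 1 of the 10 genes passed.

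In that kidney TDO2 and APCS stood at 1.18% of their liver level, and 8 of the 10 genes were within 2-fold of it: ALB at 0.775%, AHSG at 0.802%, APOH at 0.687%, SERPINA1 at 0.753%, TF at 0.879%, AMBP at 1.25%, RBP4 at 1.58% and APOA2 at 1.66%. TTR at 2.38% and APOA1 at 2.72% were above. RBP4 and TF reached 1.59 and 0.801% in kidneys with little TDO2 and APCS, so their percents here are close to levels found without that pair. The source of these transcripts was not tested. In linrodostat against CPB, 0 of the 10 genes and 0% of all genes passed in kidney by edgeR; 3 of the 10 and 822 of all genes had an unadjusted p under 0.05, and DESeq2 and limma-voom called 0 of the 10.

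In lung, TF, APOA1 and RBP4 were found in all 19 libraries and the other 7 genes were under 1 CPM. TF lay at 63.9, 105 and 183 CPM (lowest, median, highest) in control lungs, 66.9, 89.4 and 119 CPM in CPB lungs and 123, 81.7, 76.1 and 68.5 CPM in linrodostat lungs. RBP4 lay at 7.38, 15.9 and 41.2 CPM in controls and 8.73, 15.4 and 39.3 CPM in CPB animals. APOA1 lay at 25.2, 50.4 and 128 CPM in controls and 68.4, 84.6 and 107 CPM in CPB animals. These are 0.567 to 1.62%, 0.245 to 2.82% and 0.273 to 1.39% of the liver levels, where TDO2 and APCS were at most at 0.00768%. ALB reached 0.511 CPM at most, and AHSG, APOA2 and TTR were at 0 in 16, 17 and 13 of 19 lungs. AMBP, the highest of the 7, was at 0 in 3 lungs and reached 0.889 CPM, above the 0.0559 to 0.0998 CPM that 3 counts are worth in lung.

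No gene of the 10 passed in lung. Only ALB, RBP4, TF and APOA1 had enough counts to be tested, so 0 of 4 passed, beside 4.71% of all genes in CPB against control, 0% in linrodostat against CPB and 2.35% in linrodostat against control. By edgeR 1 of the 4 had an unadjusted p under 0.05 in each comparison, and DESeq2 and limma-voom called 0. Of all 17849 genes tested, 3962, 462 and 3087 had such a p, in the same order of comparisons. APOA1 had 0.55 ± 0.25 in CPB against control (adjusted p = 0.205). It passed without control animal 4 (0.81, adjusted p = 0.0313), whose lung had 128 CPM, the highest control value.

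In heart, APOA1 and ALB were found in every library. APOA1 lay at 21.4, 24.0 and 48.6 CPM in controls, 19.7, 30.1 and 34.7 CPM in CPB animals and 63.6, 42.4, 17.3 and 30.9 CPM in linrodostat animals, 0.187 to 0.689% of the liver level. ALB lay at 2.00, 3.54 and 18.4 CPM in control hearts, 0.836, 1.51 and 10.6 CPM in CPB hearts and 1.03, 1.23, 0.948 and 2.33 CPM in linrodostat hearts. Control animal 7 and CPB animal 21 were the highest of their arms, and these are the 2 hearts with TDO2 and APCS above 0.02% (0.029 and 0.0428%). In the other 17 hearts TTR, APOH, SERPINA1 and AMBP were at 0 in 16 libraries each, RBP4 and APOA2 in 15, AHSG in 14 and TF in 10.

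Neither APOA1 nor ALB, the 2 genes with enough counts, passed in heart, beside 11.9% of all genes in CPB against control, 0% in linrodostat against CPB and 2.04% in linrodostat against control. The counts at an unadjusted p under 0.05 were 0, 0 and 1, beside 4165, 901 and 2353 of all 14890 genes tested. DESeq2 called 1, ALB, in linrodostat against control (-1.95, adjusted p = 0.0429, against -1.97 ± 0.73 and adjusted p = 0.178 by edgeR). For CPB against control ALB gave -0.99 ± 0.56 (adjusted p = 0.264). Leaving out the hearts of animals 7 and 21 gave -1.32 (adjusted p = 0.0175), and leaving out animal 21 alone -1.93 (adjusted p = 0.0118). With all hearts in, 6 of the 7 CPB hearts lay below the lowest control, and that of animal 21 lay within the controls. The share of all heart genes whose arms lie apart to that degree was not counted.

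Over the 8 control animals, liver stood highest for all 10 genes and differed from each of the other organs. These fits used TMM factors taken across organs, while the CPM and percents above were scaled within each organ. Fitted differences between organs therefore need not match the CPM and percents. Of the 100 tests of a gene between 2 organs, 82 passed. They include every pair with liver, and the genes were chosen for their secretion by hepatocytes. The 82 is therefore no measure of differences among the other organs. For comparison, 71.8% of all 18305 genes tested differed between heart and ileum, 61.9% between heart and kidney, 69.7% between heart and liver, 68.2% between heart and lung and 67.2% between ileum and kidney. The shares were 68.4% between ileum and liver, 61.3% between ileum and lung, 67.8% between kidney and liver, 58.9% between kidney and lung and 72.1% between liver and lung. Below liver, APOA1 was ordered ileum, kidney, lung and heart by median, with lung and heart not separated (-0.03 ± 0.30, adjusted p = 0.929). TF was ordered lung, kidney, ileum and heart, with lung and kidney not separated (0.85 ± 0.68, adjusted p = 0.289). RBP4 had the same order, and lung and kidney were again not separated (1.30 ± 0.61, adjusted p = 0.0662). TTR and AMBP came next in kidney, at 8.05 ± 0.81 and 10.91 ± 1.22 below liver on the log2 scale of the fit. By CPM scaled within organs, control kidneys averaged 0.883% of the liver level for TTR and 0.121% for AMBP. For TTR kidney stood above ileum (4.17 ± 0.70, adjusted p = 2.59e-06), while for AMBP those 2 were not separated (1.18 ± 0.82, adjusted p = 0.203). With the animal as a replicate block, AMBP did pass (-2.77 for ileum over kidney, adjusted p = 0.00553). With limma-voom TF and RBP4 passed between kidney and lung (adjusted p = 0.00503 and 0.0055), and AMBP between ileum and kidney (adjusted p = 0.000121).

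The remaining 5 genes had medians under 4 CPM in every other control organ. For APOA2, 5 of the 6 pairs among heart, ileum, kidney and lung did not pass, and for APOH 3 did not; with the replicate block the counts were 3 and 4. ALB was not separated between heart and ileum (-0.85 ± 0.84 for heart over ileum, adjusted p = 0.37), AHSG between kidney and ileum (-1.01 ± 0.91, adjusted p = 0.333), and SERPINA1 between kidney and heart (0.77 ± 0.93, adjusted p = 0.491). With limma-voom ALB stood higher in heart than ileum (2.15, adjusted p = 0.0353) and AHSG lower in ileum than kidney (-2.88, adjusted p = 0.00912); the replicate block turned the same signs without passing (0.14 and -1.42, adjusted p = 0.9 and 0.206). Several of these fits rest on ilea and hearts with TDO2 and APCS. The order by medians and the fitted difference between neighbours in that order were opposite in sign for ALB, AHSG, APOA2 and APOH. Between lung and heart the same held for APOA1 and AMBP. Medians were scaled within each organ, while fits were scaled across organs and follow group means. By means of the within-organ CPM, ileum stood above heart for ALB (19.1 and 5.38 CPM). Ileum also stood above kidney for AHSG (5.32 and 2.49 CPM) and APOA2 (0.262 and 0.09 CPM). Heart stood above lung for APOH (0.282 and 0.0738 CPM). For APOA1 and AMBP the means kept lung above heart (59.5 and 28.6, 0.223 and 0.219 CPM). The part of scaling, of means against medians or of those libraries in these signs was not tested.

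The effect of CPB was then compared between the 5 organs with an F test over all 95 libraries. Of the 10 genes 0 passed, beside 12.9% of all 20321 genes, which does not show that their effects were equal. By edgeR 1 of the 10 genes, APOA1, had an unadjusted p under 0.05 (adjusted p = 0.149), beside 5652 of all 20321 genes. APOA1 passed with limma-voom (adjusted p = 0.0244). With the animal as a replicate block, which pairs the organs of 1 animal, 0 of 10 passed (APOA1 adjusted p = 0.0538). For RBP4, which rose in kidney and did not pass in liver or lung, the adjusted p of the difference between organs was 0.382.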

How the data were processed

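The authors deposited 1 table with an expected count for each Ensembl gene and library, unscaled. Most values were whole (92.67 to 96.59% per library), and the rest were rounded here. Poly(A) RNA was sequenced as paired reads on an Illumina NovaSeq, per the labels' protocols. Per the submitters' processing notes the build was Sscrofa11.1 and the tools included STAR, Salmon, cutadapt, Trim Galore, bcl2fastq and MultiQC. Which program made the counts, its strand setting, the versions and the annotation release are not given in the sources used here.

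Each organ was fitted apart over its 19 libraries with edgeR 4.0.16 under R 4.3.3, using filterByExpr by arm, TMM factors and robust quasi-likelihood F tests, and p-values were adjusted over all tested genes. Alternatives were relative log expression factors, no low-count filter, scaling without plasma protein genes, sex as covariate, a fit to the 2 arms at hand alone, limma-voom (limma 3.58.1), DESeq2 1.42.0, leaving out each animal and, added after the data were seen, leaving out libraries with TDO2 and APCS at 0.02% of the liver level or more. Simulated counts in which chosen genes differed by set folds were used to test the fits. Likeness used log2 CPM with a prior count of 2.

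The 10 genes and the gene lists were chosen with earlier results of these data known. From each related list the text names up to 3 passing genes with the largest change in liver in CPB against control and up to 2 in linrodostat against CPB, and the 5 genes most like the 10. Positions are those of RefSeq on Sscrofa11.1. The labels give each animal a number, so libraries of 1 animal pair across organs. After removal of organ and arm means, libraries of the same animal had median correlations of 0.121 to 0.331 over the 10 organ pairs. Within an organ the arms share no animals.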

Additional observations from a re-analysis of the deposited data

Results flagged for a closer look

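Groups of libraries whose highest level reached 1 CPM were looked at, 106 in all. By Dixon's ratio of the gap to the range, 1 library stood apart from the rest of its arm in 32. The ratio flags about 1 in 20 independent groups of normally distributed values. Here genes share libraries, and some groups reached 1 CPM only through the library apart, so the 32 cannot be read against that rate. Most of the 32 groups come from 4 libraries that also hold TDO2 and APCS.

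The kidney of linrodostat animal 12 was apart for 6 genes: ALB (333 CPM), AHSG (91.4), AMBP (64.8), APOH (31.4), SERPINA1 (20.0) and APOA2 (8.49). The ileum of control animal 26 was apart for 8 genes: ALB (102 CPM), AHSG (31.1), TF (25.6), AMBP (15.9), APOH (11.1), SERPINA1 (6.49), TTR (3.52) and APOA2 (1.38). The heart of control animal 7 was apart for 6: ALB (18.4 CPM), AHSG (3.50), TF (2.71), APOH (2.15), AMBP (1.75) and RBP4 (1.01). The heart of CPB animal 21 was apart for 4: ALB (10.6 CPM), AHSG (2.48), TF (2.43) and AMBP (1.52).

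The other libraries apart were high for 1 gene in an arm each. In kidney these were RBP4 in CPB animal 21 (66.2 CPM), TTR in CPB animal 6 (19.8 CPM), APOH in CPB animal 9 (3.96 CPM) and ALB in control animal 4 (4.94 CPM). In ileum it was APOA1 in CPB animal 2 (1740 CPM) and in lung APOA1 in control animal 4 (128 CPM). In liver, AHSG in control animal 1 (20670 CPM) and TTR in CPB animal 21 (1833 CPM) stood apart.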

How the results depend on the processing

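Of 628 alternative values for the 24 fold changes of the 10 genes given above, 556 kept direction and side of the threshold. With the direction kept, 23 lost the call and 7 gained it. The other 42 changed sign, and some of these also lost or gained the call. The counts of passing genes moved as follows. In kidney, linrodostat against control gave 2 with DESeq2, 1 with limma-voom, 3 with only the 2 groups compared, 3 with sex as covariate and 1 without the libraries at 0.02% TDO2 and APCS or more; leaving out 1 animal gave 1 to 6. Without those libraries CPB against control gave 2 in kidney and 1 in heart. DESeq2 gave 1 in both linrodostat comparisons in ileum and 1 in heart against control. Leaving out 1 animal gave 0 to 1 in liver (CPB and linrodostat against control) and in lung and heart (CPB against control). The F test between organs gave 1 with limma-voom; the replicate block by animal, which pairs organs, gave 0 there and left 82 of the 100 organ pair tests passing, with 4 calls lost, 4 gained and 2 signs changed. With limma-voom 78 passed, with 11 lost, 7 gained and 4 signs changed. Within an organ no block could be fitted, since the arms share no animals.

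Signs changed where estimates lay near 0 in liver, CPB against control. APOA2 was -0.022 with DESeq2, -0.027 with limma-voom, -0.020 without a filter, -0.004 with only the 2 groups, -0.022 with relative log expression factors and -0.021 when scaled without plasma protein genes. APOA1 was -0.014 with DESeq2, -0.010 without a filter, -0.014 with relative log expression factors, -0.011 when scaled without plasma protein genes and -0.003 with sex. Leaving out 1 animal gave -0.082 to 0.046 for AMBP, -0.073 to 0.103 for APOA2, -0.18 to 0.129 for AHSG, -0.189 to 0.008 for TTR and -0.06 to 0.096 for APOA1, and -0.145 to 0.091 for AHSG in linrodostat against CPB. In kidney, linrodostat against control ran from -4.726 to 5.715 for APOA2, -2.116 to 6.872 for ALB, -1.036 to 3.654 for AHSG and -2.136 to 7.15 for APOH. Without the libraries with TDO2 and APCS, ALB was -3.043 in CPB and -2.096 in linrodostat against control and AHSG -1.007; APOA2 and APOH then had too few counts to test.

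The median percent of the liver level over 21 hepatocyte genes was 0.616 in kidney, 0.0161 in ileum, 0.00922 in lung and 0 in heart. With TDO2 and APCS alone it was 0 in kidney and 0 in lung, as a ratio of sums 0.303 in ileum, 0.0384 in lung and 0.0131 in heart, and with intracellular genes only 0.0833 in lung. The cause of these changes was not tested. In lung and heart, low counts left 6 and 8 of the 10 genes untested.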
